A study of Saccharomyces cerevisiae with 13 samples.

Results

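The genes described here are 53 genes for enzymes of amino acid biosynthesis in the budding yeast Saccharomyces cerevisiae, together with GCN4, whose protein is the transcriptional activator of these pathways. They were taken from a list of names arranged by pathway, and all 54 were found among the 7125 named genes counted in the 13 libraries. The list holds 8 genes of arginine synthesis, 7 of histidine, 10 of the branched-chain amino acids, 7 of lysine, 10 of the aromatic amino acids, 5 of the aspartate family, 4 of serine and 2 of asparagine. Reads were counted from 3′ mRNA-Seq libraries (QuantSeq), which sample the 3′ ends of polyadenylated transcripts, so levels are compared between libraries for the same gene and not between genes.

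All cells were derived from BY4741, a haploid MATa laboratory strain described with deletions of HIS3, LEU2, LYS2 and URA3. Caffeine-treated WT cells carried no plasmid and received 50 mM caffeine for 1 h (n = 2; the label of the second library reads 51 mM), and untreated WT cells carried no plasmid either (n = 2). The yap1 mutant, in which YAP1 is replaced by a drug resistance cassette, carried the empty vector pRS426ADH (n = 3). The Yap1 overexpression strain (Yap1 OE) was WT with YAP1 on the ADH vector, a construct that the strain list gives with a TAP tag (n = 3), and WT cells with the empty vector were the control of both (n = 3). These 9 plasmid libraries name no caffeine. Cultures were grown in rich YEPD or in minimal SD medium with the required amino acids, and the labels do not say which medium each library had. Nothing in them says that replicates came from separate cultures, so p-values measure only the spread between these libraries.

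Yeast makes its own amino acids from intermediates of central metabolism, and most of the pathways are under general amino acid control. When an amino acid runs short, the kinase Gcn2 phosphorylates the initiation factor eIF2, translation of GCN4 mRNA rises because ribosomes pass over short reading frames in its leader, and Gcn4 binds TGACTCA sites upstream of biosynthetic genes. Counts of GCN4 mRNA do not measure that translational step. Several pathways have regulators of their own besides Gcn4, such as the ArgR complex for arginine, Leu3 for the branched-chain amino acids and Lys14 for lysine. Yap1, the factor deleted or overexpressed in the plasmid strains, is a bZIP activator of the oxidative stress response.

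The Gcn4 site links these genes by sequence. TGACTCA, on either strand, stood within 250 bases upstream of the start codon in 21 of the 54 genes (38.9%), against 130 of 6002 protein-coding genes of the nuclear genome (2.17%). Within 500 bases it stood in 29 of the 54 (53.7%) and in 240 of the 6002 (4.0%). The windows below were read from the RefSeq R64 genome on the strand of each gene, with the 7 bases of the site in capitals (TGAGTCA is the same site on the opposite strand). They are shown because their genes carry the results that follow: ARG4, LYS1 and CPA1 were higher after caffeine, HIS1, LEU9, TRP2 and HOM2 were lower, and ARG1, ARG7, LEU1 and ARO1, with ARG4 and LYS1, were higher in WT with vector than in untreated WT.
ARG4: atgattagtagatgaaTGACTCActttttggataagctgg
LYS1: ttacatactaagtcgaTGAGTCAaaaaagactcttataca
CPA1: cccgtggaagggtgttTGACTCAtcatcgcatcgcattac
HIS1: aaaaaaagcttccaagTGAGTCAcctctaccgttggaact
LEU9: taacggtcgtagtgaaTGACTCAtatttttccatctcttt
TRP2: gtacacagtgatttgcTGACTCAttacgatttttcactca
HOM2: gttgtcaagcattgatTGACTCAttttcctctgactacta
ARG1: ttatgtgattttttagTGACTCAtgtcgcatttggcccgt
ARG7: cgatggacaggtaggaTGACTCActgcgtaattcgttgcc
LEU1: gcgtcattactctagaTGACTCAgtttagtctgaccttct
ARO1: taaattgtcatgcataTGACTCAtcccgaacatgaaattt

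In R64 these windows lie at chrVIII:141558-141597 (ARG4), chrIX:420963-421002 (LYS1), chrXV:882399-882438 (CPA1), chrV:265946-265985 (HIS1), chrXV:522754-522793 (LEU9) and chrV:337771-337810 (TRP2). The others lie at chrIV:770157-770196 (HOM2), chrXV:218850-218889 (ARG1), chrXIII:396508-396547 (ARG7), chrVII:478930-478969 (LEU1) and chrIV:704245-704284 (ARO1). ARG4, LYS1, HIS1, LEU1 and ARG7 are on the minus strand. The same heptamer thus stood upstream of genes that were higher and of genes that were lower after caffeine, and a match is a description of the letters, not of binding. TTACTAA and TGACTAA, the elements bound by Yap1, stood on either strand within 500 bases of 23 of the 54 genes (42.6%) and of 17% of all 6002. The Gcn4 and Yap1 heptamers differ, so a match to one is never a match to the other, although matches can share bases at their ends.

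The libraries held 15508616 to 25609092 counts. Rows of rRNA took 22.7% to 27.4% of the counts after caffeine and 14.7% to 18.4% in untreated WT, and 51.2% to 58.2% in the yap1 mutant, 43.8% to 64.0% in Yap1 OE and 62.3% to 75% in WT with vector. Replicate 2 of WT with vector stood apart, with an SD of its 54 deviations from the group mean of 0.555 on the log2 scale, against 0.118 to 0.344 in the other 8 plasmid libraries. Its table was the only one of the plasmid libraries with the gene names used in the 4 libraries without plasmid, and the part of this in the results was not tested. GCN4 and the counts of called genes are also given without it. YAP1 had 2 to 22 counts in the yap1 mutant, 23285 to 25251 in Yap1 OE and 635 to 722 in WT with vector. URA3, the marker of the plasmid, had 0 counts in the 4 libraries without plasmid, and LEU2 had 0 in all 13, which allows up to 3 counts per library. LYS2 had 312 to 897 counts in every library, against the stated lys2 deletion, while MET17, not named in the stated genotype, had 0 in all 13. The 6 MATa markers together had 10647 to 58206 counts per library and the 4 MATalpha markers 190 to 498.

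Most of these genes were lower after caffeine. Compared with untreated WT, 31 of the 54 were lower after caffeine and 4 were higher, by edgeR's quasi-likelihood test at a Benjamini-Hochberg adjusted p under 0.05 over the 6759 genes tested. Over all genes tested, 23.6% were lower and 22.2% were higher. The median log2 fold change of the 54 was -0.94, and that of all genes was -0.00. The members took 0.733% and 0.607% of the counts outside rRNA after caffeine, against 0.864% and 0.830% in untreated WT. The 4 higher genes were ARG4, CPA1, LYS1 and SER3. Scaling changed the split: with library size alone, 9 were higher and 21 lower (32.3% and 16.1% of all genes), and with library size without the rRNA rows 9 were higher and 18 lower (38.2% and 14% of all genes). These scalings moved the median of all genes to 0.37 and 0.53, and the members' median stayed 0.95 and 0.94 below it on the log2 scale. No called gene changed sign in either scaling, but LYS20, LYS21, LYS4, SER33, HIS2, HIS6, TRP5, ASN2, HOM6 and SER1 were not called in both, and HIS7, ILV6 and ARG8 not in the second. The 29 genes with a Gcn4 site within 500 bases held 3 of the higher and 13 of the lower genes, with a median of -0.42. The 25 without held 1 and 18, with a median of -0.98. With the window of 250 bases the medians lay closer. The 21 genes with a site held 2 higher and 10 lower genes (median -0.82), and the 33 without held 2 and 21 (median -0.97).

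**Figure D1:**
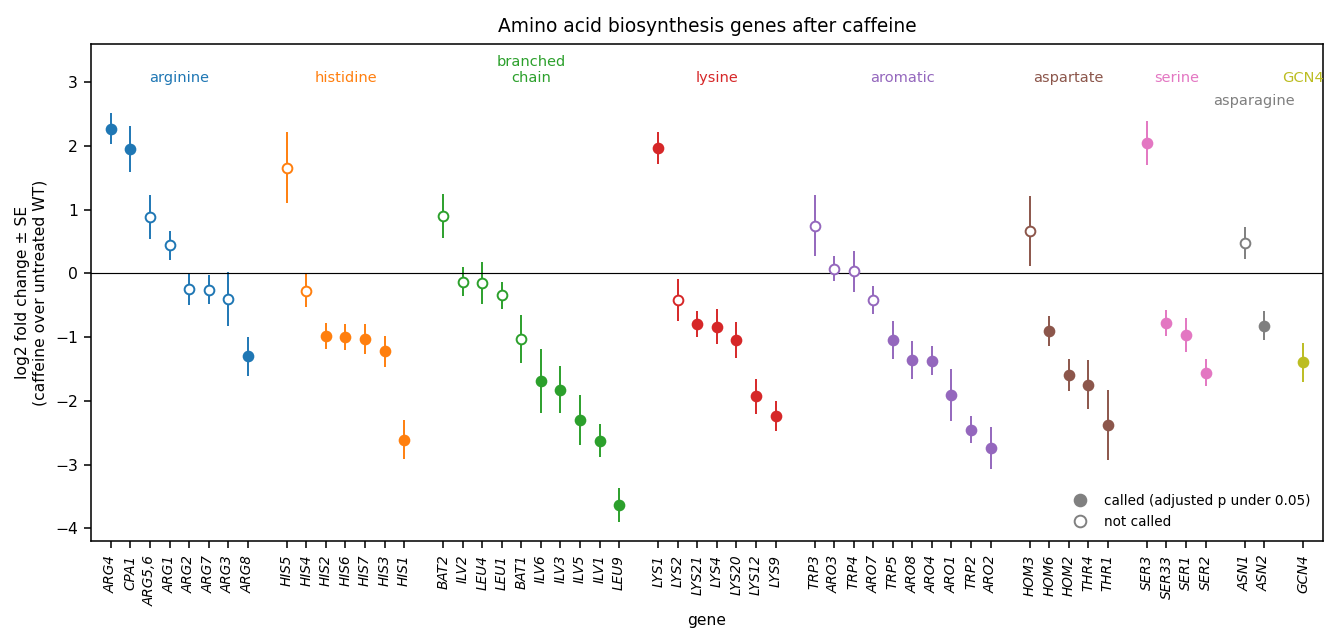
Log2 fold change of caffeine-treated over untreated WT (y axis, with its standard error) for the 54 genes, grouped and coloured by pathway along the x axis (n = 2 libraries each). Filled points passed the test: 31 lie below 0 and 4 (ARG4, CPA1, LYS1 and SER3) above it.

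GCN4 itself was lower. It had 388 and 236 CPM (counts scaled to a library of 1000000) after caffeine, against 861 and 781 CPM in untreated WT, a log2 fold change of -1.40 ± 0.31 (SE, edgeR adjusted p = 0.0132). Both caffeine libraries lay well below both untreated ones. The call was lost without replicate 1 of untreated WT, and the direction held in every scaling. It also held with each library left out, which could hardly turn the sign of groups so far apart.

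Arginine synthesis was split. ARG4, argininosuccinate lyase of the last step, had 112 and 95.7 CPM after caffeine, against 18.7 and 24.2 CPM in untreated WT (log2 fold change 2.27 ± 0.24, edgeR adjusted p = 0.00115). CPA1, the small subunit of the carbamoyl phosphate synthetase that feeds the pathway, had 306 and 172 CPM after caffeine, against 72.8 and 50.7 CPM (1.95 ± 0.36, edgeR adjusted p = 0.00758). Both genes were higher in both caffeine libraries than in either untreated one. ARG8, the mitochondrial acetylornithine aminotransferase, was the 1 lower gene, at 7.47 and 4.95 CPM after caffeine against 14.9 and 15.7 CPM (-1.30 ± 0.31). The 5 others were not called: ARG5,6, the precursor of acetylglutamate kinase and reductase, had a log2 fold change of 0.88 ± 0.34, ARG1 (argininosuccinate synthase) 0.44 ± 0.22, and ARG2 (acetylglutamate synthase), ARG3 (ornithine carbamoyltransferase) and ARG7 (ornithine acetyltransferase) lay between -0.40 and -0.25.

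Of the 7 histidine genes, 5 were lower and none of the others was called. HIS1, the ATP phosphoribosyltransferase that opens the pathway, moved most, at 118 and 77.1 CPM after caffeine against 597 and 590 CPM in untreated WT (-2.61 ± 0.30, edgeR adjusted p = 0.00146). HIS3, imidazoleglycerol-phosphate dehydratase, had 61.5 and 43.7 CPM after caffeine, against 123 and 122 CPM (-1.22 ± 0.24). HIS3 is partly deleted in this strain, so these counts are of what remains of the gene, and 3′ tags do not check the deletion. HIS2 (histidinol phosphatase), HIS6 (an isomerase of the pathway) and HIS7 (imidazole glycerol phosphate synthase) fell by 0.98, 1.00 and 1.03 on the log2 scale. HIS4, a multifunctional enzyme, did not pass the test (-0.27 ± 0.26). HIS5, histidinol-phosphate aminotransferase, differed between its caffeine replicates, with 12.2 and 40.6 CPM against 7.54 and 9.18 CPM in untreated WT (1.66 ± 0.56, edgeR adjusted p = 0.0554).

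The branched-chain genes gave the largest fall of the 54. LEU9, the minor isopropylmalate synthase of leucine synthesis, had 13.4 and 9.48 CPM after caffeine, against 146 and 138 CPM in untreated WT. This was 12.4-fold lower (log2 fold change -3.63 ± 0.27, edgeR adjusted p = 0.000867). ILV1, threonine deaminase, the entry to isoleucine, was 6.17-fold lower, at 7.89 and 6.30 CPM against 50.3 and 37.3 CPM. ILV5 (ketol-acid reductoisomerase), ILV3 (dihydroxyacid dehydratase) and ILV6 (the regulatory subunit of acetolactate synthase) fell by 2.31, 1.82 and 1.69 on the log2 scale. ILV2, the catalytic subunit of the same synthase, had 134 and 122 CPM after caffeine against 156 and 124 CPM and was not called (-0.13 ± 0.23). LEU1, isopropylmalate isomerase, was not called either (-0.35 ± 0.21).

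Lysine synthesis had 5 lower genes and 1 higher. LYS1, saccharopine dehydrogenase of the last step, had 128 and 119 CPM after caffeine, against 36.9 and 26.2 CPM in untreated WT (1.97 ± 0.25, edgeR adjusted p = 0.00196). LYS9, the saccharopine dehydrogenase of the step before, went the other way, at 23.8 and 28.9 CPM after caffeine against 113 and 135 CPM (-2.24 ± 0.23, edgeR adjusted p = 0.00113). The libraries of the groups did not overlap in either gene. LYS12 (homoisocitrate dehydrogenase) fell by 1.93 and LYS4 (homoaconitase) by 0.84 on the log2 scale. LYS2, aminoadipate reductase, had 28.7 and 16.8 CPM after caffeine against 36.1 and 24.8 CPM and was not called.

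In the aromatic group 6 of 10 were lower. ARO2, chorismate synthase at the branch point, had 33.8 and 22.4 CPM after caffeine, against 226 and 150 CPM in untreated WT (-2.74 ± 0.33, edgeR adjusted p = 0.00173). TRP2, anthranilate synthase, which draws chorismate into tryptophan, had 25.2 and 24.8 CPM after caffeine, against 129 and 145 CPM (-2.45 ± 0.21). ARO1, the pentafunctional enzyme before chorismate, fell by 1.91, ARO8 (an aromatic aminotransferase) by 1.36 and TRP5 (tryptophan synthase) by 1.05 on the log2 scale. ARO7, chorismate mutase of the phenylalanine and tyrosine branch, was not called (-0.42 ± 0.22), nor were TRP3 (0.75 ± 0.47) and TRP4 (0.03 ± 0.32), which encode further steps of tryptophan synthesis.

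In the aspartate family, which leads to threonine and methionine, 4 of 5 genes were lower. THR1, homoserine kinase, had 71.6 and 32.2 CPM after caffeine, against 380 and 162 CPM in untreated WT (-2.38 ± 0.55, edgeR adjusted p = 0.0163). The THR1 value was -1.61 without replicate 1 of untreated WT and -3.07 without replicate 1 of caffeine-treated WT, and its call was lost without the first of these and without replicate 2 of caffeine-treated WT. HOM2 (aspartate semialdehyde dehydrogenase), HOM6 (homoserine dehydrogenase) and THR4 (threonine synthase) fell by 1.59, 0.90 and 1.75 on the log2 scale. HOM3, the aspartate kinase that opens the pathway, was read at only 3.6 and 10.8 CPM after caffeine and 4.89 and 4.22 CPM in untreated WT, and its groups overlapped. All 4 serine genes were called. SER2, phosphoserine phosphatase, had 30.8 and 38.3 CPM after caffeine against 104 and 99.0 CPM (-1.56 ± 0.22), and SER1, phosphoserine aminotransferase, fell by 0.97 on the log2 scale.

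The list holds 6 pairs of isoenzymes, which catalyse the same step. Ratios of their counts were taken within each library, where scaling cancels, and were not tested. The SER3 to SER33 ratio, of the phosphoglycerate dehydrogenases of the first step of serine synthesis, was 3.83 and 7.06 after caffeine, against 0.725 and 0.797 in untreated WT. SER3 itself rose (120 and 213 CPM against 34.9 and 45.5 CPM, 2.05 ± 0.34, edgeR adjusted p = 0.0051), while SER33 fell by 0.78 on the log2 scale. SER3 is the only one of the 54 that overlaps another gene of the annotation: its first 77 bases are shared, on the same strand, with SRG1, a non-coding RNA whose transcription across the SER3 promoter is known to repress it. SRG1 had 65.6 ± 0.99 CPM after caffeine and 56.8 ± 18.1 CPM in untreated WT (SD, n = 2 each) and was not called, and its share in the SER3 counts was not tested.

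The LEU4 to LEU9 ratio was 16.2 and 12.9 after caffeine, against 1.40 and 1.25 in untreated WT. LEU4, the major isopropylmalate synthase, had 217 and 122 CPM after caffeine against 204 and 173 CPM (-0.15 ± 0.33), and LEU9 fell. The BAT1 to BAT2 ratio was 0.0790 and 0.0871 after caffeine, against 0.364 and 0.25. BAT1 encodes the mitochondrial and BAT2 the cytosolic branched-chain aminotransferase, and neither alone passed the test (-1.03 ± 0.37 and 0.90 ± 0.35, edgeR adjusted p = 0.0683 and 0.0791).

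The ARO3 to ARO4 ratio, of the DAHP synthases that open the aromatic pathway, was 0.474 and 0.568 after caffeine and 0.197 and 0.186 in untreated WT. ARO4 fell by 1.37 on the log2 scale, and ARO3 was not called (0.07 ± 0.20). The ASN1 to ASN2 ratio of the asparagine synthetases was 1.27 and 1.49 after caffeine, against 0.626 and 0.486. ASN2 fell by 0.82 and ASN1 was not called (0.48 ± 0.25). In 5 of the 6 pairs, then, the ratios of the caffeine libraries lay wholly outside those of the untreated ones. The exception was LYS20 to LYS21, the homocitrate synthases, at 2.16 and 1.55 after caffeine against 2.37 and 2.04, where both genes fell (by 1.05 and 0.80 on the log2 scale). Such separation was common with 2 libraries a group. Of the 6759 genes tested, 2529 had CPM wholly above untreated WT after caffeine and 2539 wholly below. That share is of single genes, and none was taken for ratios of other pairs. LYS20 and LYS21 share an unbroken run of 278 bases in their coding sequences, and ASN1 and ASN2 one of 83, longer than the 75-base reads. The 3′ end, where 3′ tags fall, was taken as 600 bases, in equal parts the end of the coding sequence and the bases downstream. There the longest shared runs were 48 and 23 bases. Since multiple alignments were counted, the values of these pairs are uncertain.

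**Figure D2:**
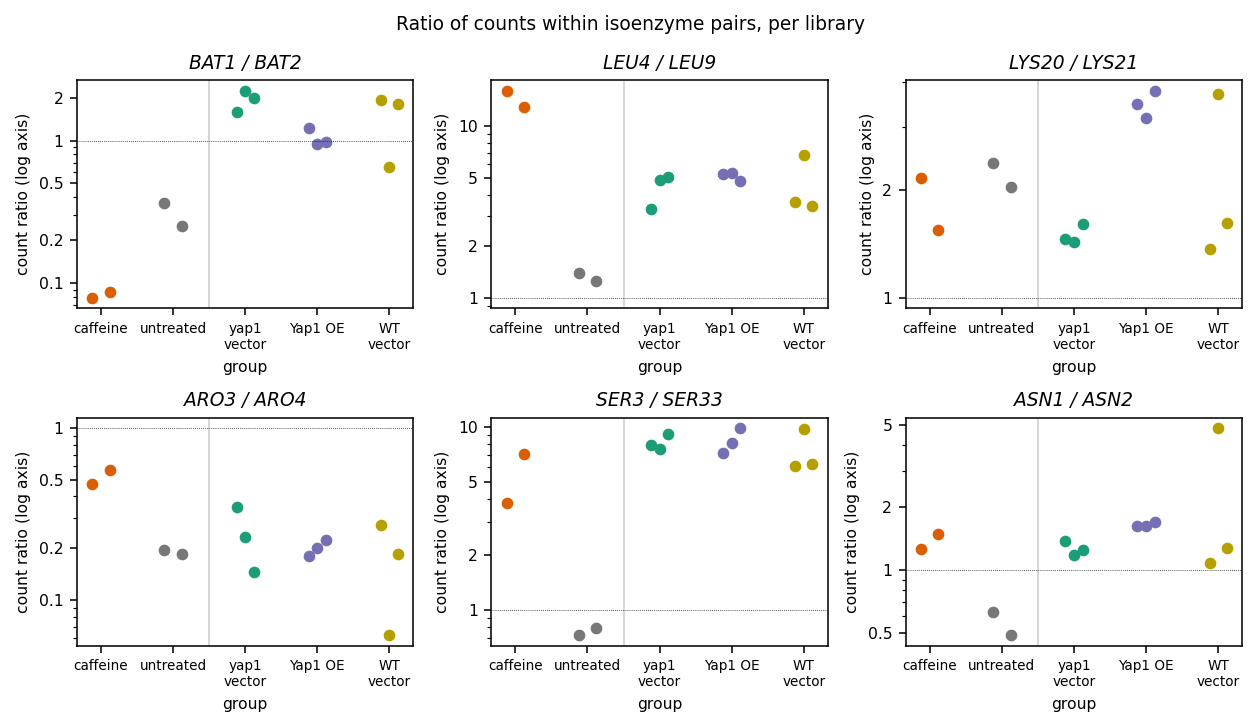
Ratio of counts of 6 isoenzyme pairs (y axis, log scale) in each of the 13 libraries, by group along the x axis, and each point is 1 library. The caffeine points lie apart from the untreated ones in every pair except LYS20 to LYS21, and in that pair the 3 Yap1 OE points lie at 3.19 to 3.79, against 1.43 to 1.61 in the yap1 mutant.

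Genes that surround these pathways were read from separate lists. Of 25 regulators, 13 were lower after caffeine and 1 was higher, beside 23.6% and 22.2% of all genes. Their median log2 fold change was -0.73. With library size alone 5 were higher and 9 lower, beside 32.3% and 16.1% of all genes. The 13 lower ones included GCN1 (-1.98 ± 0.38), an activator of the Gcn2 kinase, and SUI2 (-1.44 ± 0.23), the eIF2 subunit that Gcn2 phosphorylates. SUI3 (-1.49 ± 0.22), another eIF2 subunit, and GCD11 (-1.97 ± 0.25), the third, were also among them. The kinase gene GCN2 was not called (0.26 ± 0.24). LEU3 (-0.92 ± 0.27) and BAS1 (-1.73 ± 0.40), activators of branched-chain and of histidine and purine genes, fell, while LYS14 (0.38 ± 0.21) was not called. The 1 higher gene was SSN8, the cyclin of the Mediator kinase (1.92 ± 0.43), which was not called in a fit of all 13 libraries, without replicate 1 of untreated WT or without replicate 2 of caffeine-treated WT.

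Of 23 further enzymes and carriers that could be tested, 7 were higher and 8 lower after caffeine, beside 22.2% and 23.6% of all genes. With library size alone 9 were higher and 6 lower, beside 32.3% and 16.1% of all genes, so the balance turned for all genes too. ARO10, phenylpyruvate decarboxylase, was at 1420 ± 9.74 CPM after caffeine and 89.8 ± 12.1 CPM in untreated WT, and ARO9, an aromatic aminotransferase, at 830 ± 208 and 97.3 ± 17.1 CPM (SD, n = 2 each). Both act in the breakdown of aromatic amino acids, and their log2 fold changes were 3.98 ± 0.26 and 3.09 ± 0.31. GLN1 (glutamine synthetase, 1.29 ± 0.24), GDH1 and GDH3 (glutamate dehydrogenases, 1.22 ± 0.26 and 2.34 ± 0.24) and PHA2 (prephenate dehydratase, 0.88 ± 0.21) were among the others that rose. All 3 proline genes fell: PRO1 by 2.7, PRO2 by 1.26 and PRO3 by 1.89 on the log2 scale.

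The caffeine calls rest on 2 libraries per group, and leaving 1 out leaves 1 in its group. Fewer of all genes were also called in each direction in every such fit than with all libraries. The shares of all genes given above therefore do not serve as background for such fits, and the number of the 54 called in each is not given. With 1 library left out, the median log2 fold change of the 54 ran from -0.96 to -0.76, and ARG4, CPA1, LYS1 and SER3 were higher each time. Of the 31 lower genes, 11 kept the call with each library left out: HIS1, ILV1, ILV5, LEU9, LYS9, LYS12, TRP2, ARO2, ARO4, HOM2 and SER2. Calls were lost most often without replicate 2 of caffeine-treated WT, where the median of the 54 was -0.76. The median was -0.85 and -0.81 without replicates 1 and 2 of untreated WT. Besides THR1, a left-out library moved the fold by over 1.5 times in ILV6 (-0.97 without replicate 1 of untreated WT and -2.3 without replicate 1 of caffeine-treated WT), ARO1 (-1.27 without the first) and ILV5 (-2.9 without the second).

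WT cells with the empty vector were also set beside untreated WT without plasmid. Untreated WT is the control of the caffeine comparison too, so the comparisons share those libraries. In WT with vector, 8 of the 54 genes were higher and 0 lower by edgeR (3 lower at an unadjusted p under 0.05, and 1 lower by DESeq2). Among the 6767 genes tested, 3.53% were higher and 1.46% lower. The median log2 fold change was 0.28 for the 54 and 0.05 for all genes tested. Plasmid, medium, batch and the higher rRNA share of the vector libraries cannot be told apart here.

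Arginine synthesis led. ARG1 had 108, 68.5 and 71.3 CPM in WT with vector, against 10.1 and 8.63 CPM in untreated WT (3.14 ± 0.31, edgeR adjusted p = 0.00931). ARG4 had 125, 66.7 and 133 CPM with vector, against 10.3 and 14.0 CPM (3.15 ± 0.39, edgeR adjusted p = 0.0155). ARG7 had 242, 332 and 247 CPM with vector, against 41.0 and 46.8 CPM (2.64 ± 0.30, edgeR adjusted p = 0.012). In all 3 genes every vector library was well above both untreated ones. Of the 6767 genes tested, 1557 had CPM wholly above untreated WT in the vector libraries and 1441 wholly below. ARG3, ARG5,6 and CPA1 had log2 fold changes of 2.34, 1.16 and 1.05 and did not pass the test, and ARG2 was at -0.42.

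The other 5 higher genes came from 4 pathways. SER3 had 160, 75.8 and 168 CPM in WT with vector, against 19.2 and 26.4 CPM in untreated WT (2.56 ± 0.42). LEU1 had 80.5, 49.4 and 101 CPM with vector, against 17.3 and 22.6 CPM (1.95 ± 0.36), and LYS1 52.8, 48.3 and 59.4 CPM, against 20.4 and 15.2 CPM (1.59 ± 0.24). In both aromatic genes, ARO1 and TRP5, the vector libraries also lay above the untreated ones. ARO1 had 184, 197 and 183 CPM with vector, against 83.1 and 42.7 CPM (1.58 ± 0.34). TRP5 had 357, 505 and 358 CPM with vector, against 154 and 142 CPM (1.46 ± 0.31). The adjusted p of these 5 ran from 0.022 for LYS1 to 0.048 for ARO1.

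GCN4 was not among them. It had 413, 182 and 455 CPM in WT with vector, against 475 and 453 CPM in untreated WT (-0.41 ± 0.42, edgeR adjusted p = 0.611). The lowest value was that of replicate 2, and without it the log2 fold change of GCN4 was -0.145. HIS1, of the histidine pathway, had the lowest p of its group, at 214, 143 and 169 CPM with vector against 329 and 342 CPM (-0.94 ± 0.28, edgeR adjusted p = 0.105). DESeq2, a fit of all 13 libraries and edgeR without replicate 2 of WT with vector called HIS1 lower. HIS3 (-0.03 ± 0.28) and LYS2 (1.13 ± 0.29) were not called, nor were HOM2 (0.38) and ASN1 (1.09), the genes with the lowest p in the aspartate and asparagine groups. Of the 29 genes with a Gcn4 site within 500 bases, 6 were higher (median 0.62), and of the 25 without it 2 were, TRP5 and SER3 (median 0.08). Within 250 bases, 4 of the 21 genes with a site were higher (median 0.62), and 4 of the 33 without (median 0.10).

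**Figure D3:**
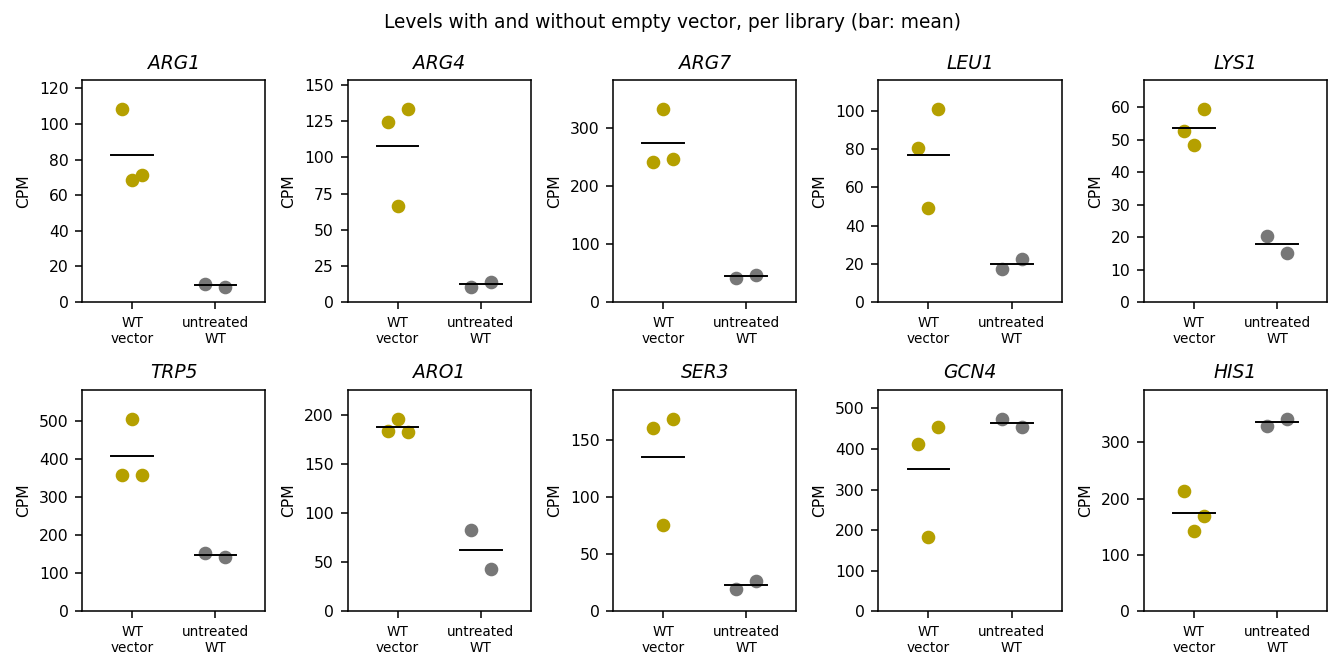
CPM (y axis) of the 8 genes that were higher in WT with vector and of GCN4 and HIS1, which were not called, in 3 libraries of WT with vector (left) and 2 of untreated WT (right), and bars are means. In the 8 genes every vector library lies above both untreated ones, as in 1557 of the 6767 genes tested. In GCN4 the groups overlap.

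ARG4, LYS1 and SER3 were higher than in untreated WT both after caffeine and with vector. HIS1 was at -2.61 after caffeine and at -0.94 with vector on the log2 scale, and LEU9 was at -3.63 after caffeine and at -0.40 with vector, where neither was called by edgeR with all libraries. Of the regulators PCL5, a Pho85 cyclin that promotes Gcn4 breakdown and is itself a Gcn4 target, was the 1 higher gene with vector, at 61.1 ± 22.8 CPM against 18.6 ± 1.52 CPM (SD, n = 3 and 2; 1.72 ± 0.38, edgeR adjusted p = 0.0497). This is 1 of 25, near the 3.53% of all genes, and no regulator was higher with library size alone (10 were lower), with the replicate block, or without replicate 1 or 3 of WT with vector or either untreated library. Among the further enzymes GLT1, glutamate synthase, and GDH3 were higher (2.42 ± 0.30 and 1.59 ± 0.27), and neither was called in those left-out fits.

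The vector counts moved with the scaling and with single libraries. With library size alone, 4 of the 54 were higher and 16 lower, GCN4 among the lower ones, beside 1.36% of all genes higher and 33.8% lower, while the median of all genes moved to -0.96 and that of the 54 stayed 0.20 above it. With library size without the rRNA rows, 16 were higher, beside 7.85% of all genes, and 0 lower (45 lower of 6703 over all genes). Without replicate 2 of WT with vector, 17 were higher and 2 lower, beside 629 and 599 of 6697 over all genes. Without replicate 1 only ARG1 was called, and without replicate 3 none was, beside 11 and 2 genes higher over all genes. Leaving out an untreated library left 1 in that group. The genes called higher with all libraries lost the call there, as did nearly all other genes called. The median of the 54 was 0.21 and 0.32 without replicates 1 and 2 of untreated WT.

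Deletion and overexpression of YAP1 were compared with WT, all with plasmid, and the same 3 WT libraries served both comparisons. In the yap1 mutant edgeR called 0 of the 54 in either direction (3 higher and 1 lower at an unadjusted p under 0.05), and DESeq2 called ARG5,6 higher, with 1.25% of all genes. Over all 6780 genes tested, 0.059% were higher and 0.0147% lower. In Yap1 OE it called 0 in either direction (3 higher and 3 lower at an unadjusted p under 0.05, none by DESeq2), with 0.442% of all genes higher and 0.0295% lower. The median log2 fold change of the 54 was 0.10 in the yap1 mutant and -0.02 in Yap1 OE.

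GCN4 had 393, 484 and 408 CPM in the yap1 mutant and 457, 381 and 533 CPM in Yap1 OE, against 379, 167 and 415 CPM in WT with vector. Its log2 fold changes were 0.42 ± 0.29 and 0.51 ± 0.29, and only replicate 2 of WT with vector lay far from the rest. Without that library they were 0.124 and 0.222. With library size alone GCN4 was called higher in Yap1 OE (1.07, edgeR adjusted p = 0.0445), where the median of all genes was 0.45. ARG5,6 had the lowest p in the yap1 mutant. It had 24.6, 20.4 and 17.3 CPM there, against 9.52, 6.66 and 12.4 CPM in WT with vector (1.13 ± 0.26, edgeR adjusted p = 0.142), and 12, 12.7 and 18.4 CPM in Yap1 OE (0.59 ± 0.26). The mutant and WT libraries did not overlap, while 501 of the 6780 genes tested lay wholly above WT with vector and 544 wholly below. Without replicate 2 of WT with vector ARG5,6 was called higher in the mutant, 1 of the 54 beside 77 of 6824 over all genes.

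HOM3, the aspartate kinase gene, had the largest log2 fold change and few counts. It was at 8.92, 6.10 and 3.23 CPM in the yap1 mutant, against 2.7, 0.485 and 1.97 CPM in WT with vector (1.85 ± 0.67, edgeR adjusted p = 0.358). SER2, the lowest, had 23.4, 24.6 and 22.0 CPM in the yap1 mutant, against 37.0, 33.0 and 28.8 CPM (-0.49 ± 0.17, edgeR adjusted p = 0.315). ARG2 was the gene with the lowest p in Yap1 OE, at 14.0, 15.7 and 18.6 CPM against 9.45, 6.22 and 12.1 CPM in WT with vector (0.80 ± 0.25, edgeR adjusted p = 0.388). None of these passed the test over all genes. The genes with the lowest p in the other pathways had log2 fold changes between -0.31 and 0.40 in the yap1 mutant (HIS7, ILV6, LYS9, ARO4 and ASN2) and between -0.49 and 0.58 in Yap1 OE (HIS1, ILV6, LYS20, ARO1, THR1, SER3 and ASN1). HIS3 and LYS2 lay between -0.15 and 0.01 in both.

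The yap1 mutant was also set directly against Yap1 OE, in the same fit of 9 libraries, so that WT with vector entered the scaling and the dispersion but not the difference. None of the 54 was called by edgeR (2 higher and 3 lower in the mutant at an unadjusted p under 0.05), while 0.31% of all genes were higher and 0.664% lower. The median log2 fold change was 0.12 for the 54 and 0.02 for all genes. GCN4 (-0.09 ± 0.29), HIS3 (-0.06 ± 0.18) and LYS2 (-0.14 ± 0.17) were not called. LYS20 had the lowest p. It had 162, 166 and 175 CPM in the yap1 mutant, against 311, 287 and 360 CPM in Yap1 OE (-0.93 ± 0.25, edgeR adjusted p = 0.122). The mutant libraries lay close together and all below Yap1 OE, as in 676 of the 6780 genes tested. DESeq2 and a fit of the 6 libraries alone called LYS20 lower in the mutant. DESeq2 called 1.95% of all genes lower, and the fit of 6 called 1.88% higher and 3.01% lower, so 1 of the 54 in a direction is near or under the background. In WT with vector LYS20 had 165, 317 and 161 CPM, so replicates 1 and 3 lay with the mutant and replicate 2 with Yap1 OE. Without replicate 2 edgeR called LYS20 higher in Yap1 OE than in WT with vector, 1 of the 54 beside 100 of 6824 over all genes.

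The LYS20 to LYS21 ratio holds the same LYS20 counts, so it is not a separate reading. It was 1.46, 1.43 and 1.6 in the yap1 mutant, 3.48, 3.19 and 3.79 in Yap1 OE, and 1.37, 3.71 and 1.62 in WT with vector. LYS21 itself had 111, 115 and 109 CPM in the mutant, against 89.2, 90.2 and 95.2 CPM in Yap1 OE (0.29 ± 0.14). LYS21 but not LYS20 had a Yap1 element within 500 bases. BAT1 was called higher in the mutant in the fit of 6 libraries alone, at 99.4, 128 and 109 CPM in the mutant against 86.4, 70.8 and 81.0 CPM in Yap1 OE (0.50 ± 0.26 in the fit of 9). BAT2, with the lowest p of the branched-chain genes, had 62.7, 57.2 and 54.8 CPM in the mutant, against 71.1, 75 and 82.6 CPM (-0.39 ± 0.15). The BAT1 to BAT2 ratio was 1.59, 2.24 and 1.99 in the mutant and 1.22, 0.944 and 0.981 in Yap1 OE, without overlap. In the other pathways the lowest p belonged to ARG5,6, HIS1, ARO7, HOM2, SER1 and ASN1, with log2 fold changes between -0.28 and 0.53.

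**Figure D4:**
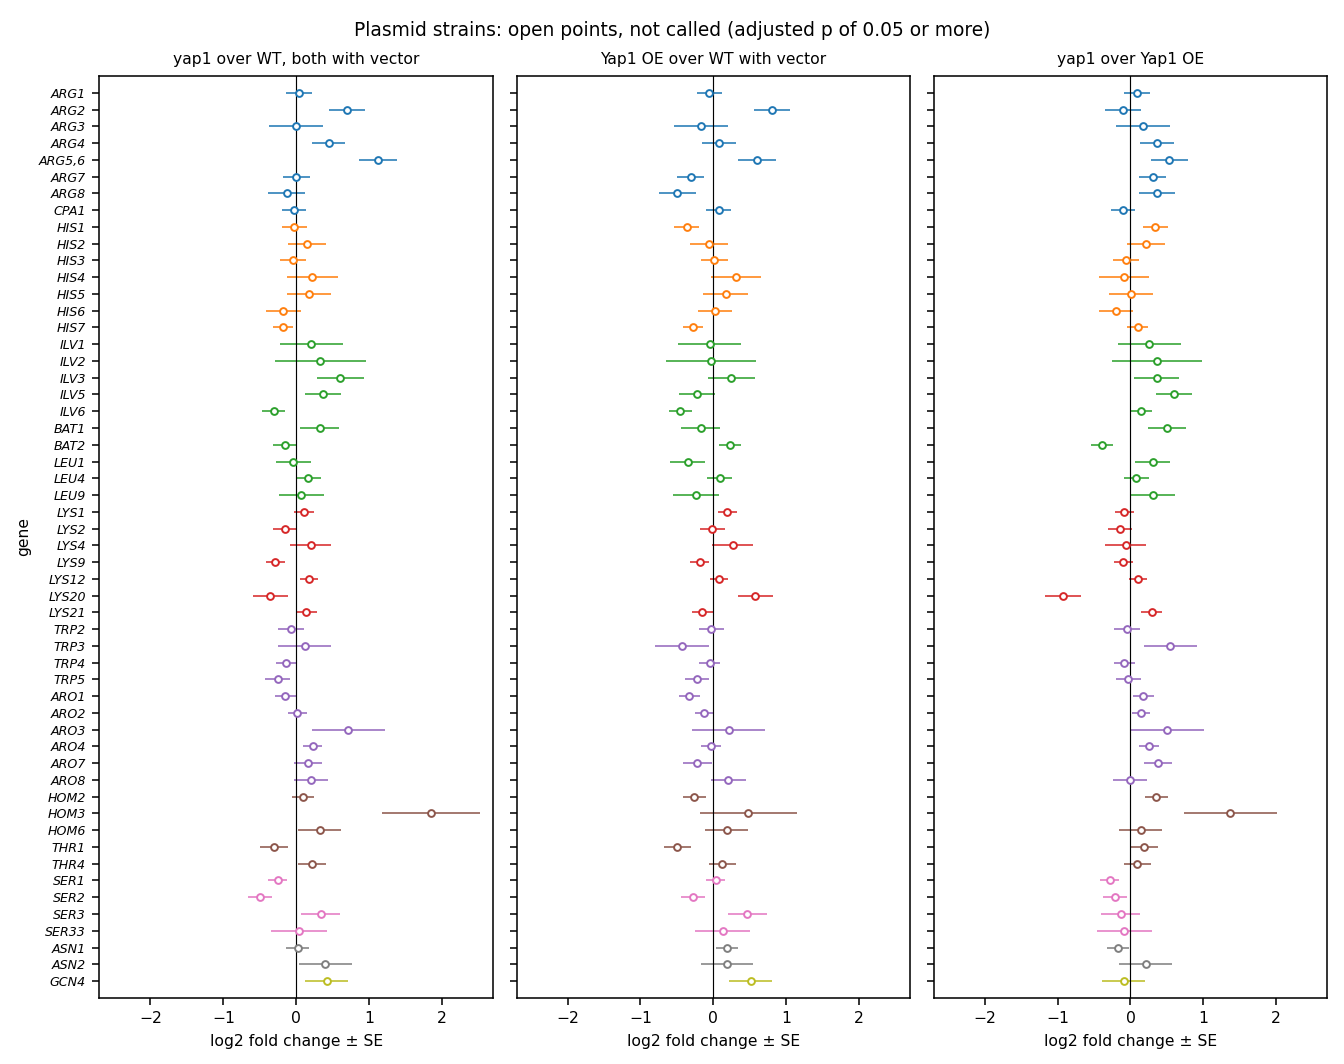
Log2 fold change with its standard error (x axis) of the 54 genes (y axis) in the yap1 mutant over WT with vector, in Yap1 OE over WT with vector, and in the yap1 mutant over Yap1 OE (n = 3 libraries each). All points are open, since none passed the test, and LYS20 lies at -0.93 in the third panel.

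Seen over all 13 libraries, the 54 genes took 1.24% to 1.34% of the counts outside rRNA in the plasmid libraries of all 3 strains, and 0.607% to 0.864% in the libraries without plasmid. ARG1, ARG4 and ARG7 were higher in the plasmid strains than in untreated WT, whichever YAP1 allele they carried. The CPM of these 3 genes are given here as scaled over all 13 libraries together. ARG1 ran from 74.4 to 119 CPM with plasmid, against 9.73 to 15.8 CPM without. ARG7 ran from 220 to 361 CPM with plasmid, against 38.9 to 52.8 CPM without. ARG4 ran from 72.4 to 184 CPM with plasmid, against 12.1 and 15.8 CPM in untreated WT. After caffeine ARG4 had 75.7 and 66.5 CPM. Within WT with vector, replicate 2 was far below its partners in ILV2, at 12.7 CPM against 99.4 and 100 CPM, and in HIS4 and ASN2, at 25 against 72.3 and 78.0 CPM and at 36.2 against 124 and 114 CPM.

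**Figure D5:**
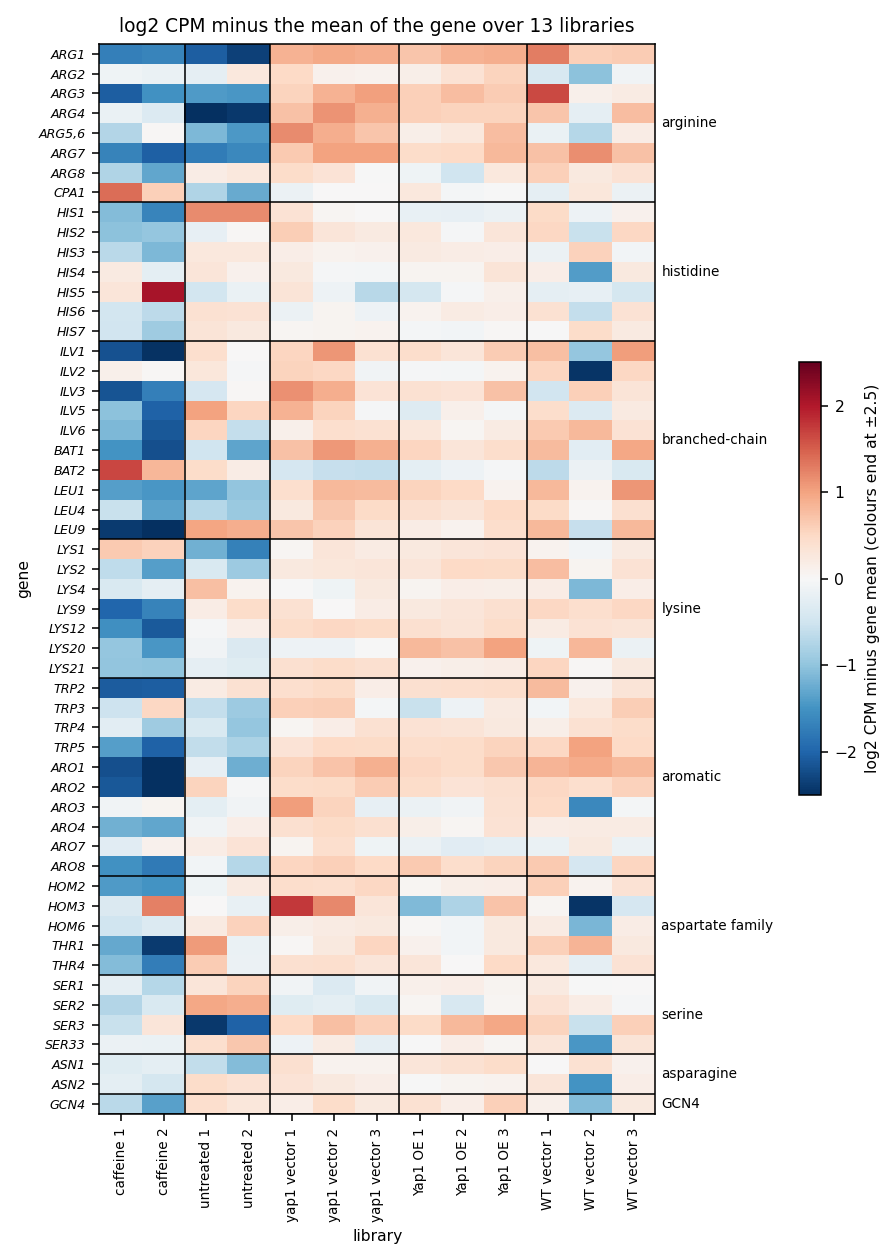
Log2 CPM of the 54 genes (y axis, by pathway) in the 13 libraries (x axis), each minus the mean of its gene over the 13, with CPM scaled over all 13 libraries together. The caffeine columns are blue in most histidine, branched-chain, aromatic and aspartate genes, ARG1, ARG4, ARG7 and SER3 are low in untreated WT, and replicate 2 of WT with vector differs from its partners in ILV2, HIS4 and HOM3.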

How the data were processed

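QuantSeq 3′ mRNA-Seq libraries were made from 500 ng total RNA with an oligo-dT primer and read as single 75-base reads. The authors aligned the reads with Bowtie2 (build sacCer3 in the submitters' notes) and deposited raw counts per gene from Bedtools coverage over unique and multiple alignments, without normalization. The gene intervals and whether counting used strand are not given in the sources used here. Files in both naming versions were joined into 7125 genes, 6956 by the same name and 169 renamed. A table of mouse genes was not used.

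Genes were tested with edgeR 4.0.16 in R 4.3.3 (filterByExpr, TMM, robust quasi-likelihood, Benjamini-Hochberg over all genes tested). The caffeine comparison used 4 libraries, the YAP1 comparisons 9 and the vector comparison 5, with biological coefficients of variation of 25.1%, 25.8% and 34.1%. The standard error was the size of the log2 fold change over the square root of F. CPM were computed from TMM-scaled libraries of the same fit, so CPM of different fits are not on one scale. DESeq2 1.42.0, library size scaling, no filter, other sets of libraries, a replicate block and libraries left out were the alternatives, and library size without the 15 rRNA rows was added after seeing the data. The tests were tested on simulated data.

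The members and lists were chosen with earlier results of these data known. The rule named GCN4, HIS3, LYS2, in each pathway the called gene with the largest rise and fall (otherwise the lowest p), all called genes where 10 or fewer, and the isoenzyme pairs after caffeine. Other members, CPA1 among them, were named after their values were seen. Counts carry no molecular identifiers, so limits from counts cover counting error only.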

Additional observations from a re-analysis of the deposited data

How the results depend on the processing

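The called genes named by the rule (16 and GCN4 after caffeine, 8 with vector) kept their direction by DESeq2, in both library size scalings and with each library left out. Their groups did not overlap in CPM, so a left-out library could hardly turn the sign. By DESeq2 or the scalings, 9 of 51 values lost the call after caffeine and 4 of 27 with vector (GCN4 included). More calls were lost with libraries left out. GCN4, not called between the yap1 mutant and Yap1 OE, ran from -0.209 to 0.02 with libraries left out, and was positive only without replicate 3 of Yap1 OE. After caffeine, 9 genes were higher with library size alone (median -0.57), and 9 higher and 18 lower with library size without rRNA rows (median -0.41). In a fit of all 13 libraries 8 were higher, beside 1689 of 6920 over all genes, and with the replicate block 7 were higher. With libraries left out, 4 to 6 were higher, 13 to 25 lower, and the median ran from -0.96 to -0.76. In the yap1 mutant 1 gene was higher by DESeq2, beside 1.25% of all genes. With library size alone 4 were higher there (median 0.51), beside 285 of 6780 over all genes (median 0.36). With libraries left out 0 to 1 were higher (median -0.008 to 0.217), the 1 without replicate 2 of WT with vector, beside 77 of 6824 over all genes. In Yap1 OE 2 (GCN4 and ARG2) were higher with library size alone (median 0.49), beside 266 of 6780 over all genes (median 0.45). With libraries left out 0 to 1 were higher in Yap1 OE (median -0.14 to 0.12), the 1 without the same library, beside 100 of 6824 over all genes. Between the yap1 mutant and Yap1 OE 1 was lower by DESeq2, 1 higher and 1 lower in the fit of 6 libraries, and the median was 0.027 with library size alone. With vector, 16 were higher and 1 lower by DESeq2, beside 573 and 403 of 6767 over all genes. With library size alone 4 were higher and 16 lower (median -0.77), beside 1.36% and 33.8% of all genes. In a fit of 13 libraries 17 were higher and 3 lower, beside 777 and 821 of 6920 over all genes. With library size without rRNA rows 16 were higher (median 0.57), beside 7.85% of all genes. With a library of WT with vector left out, 0 to 17 were higher and 0 to 2 lower. Leaving out a library of a group of 2 left 1, which is then taken to vary like the others. Same-numbered libraries correlated at -0.23 to 0.14 in the plasmid and vector comparisons, so the numbers were not taken to pair them. Over the caffeine pairs they correlated at 0.39. With 2 libraries a group the deviations mirror each other, so both pairs give 1 and the same value. It cannot settle whether the libraries are paired, and no label names a shared culture or day. The replicate block called 7 higher and 32 lower after caffeine (1903 and 1966 of all genes, against 1501 and 1593 without it), 7 higher with vector and 0 of the 54 in the YAP1 comparisons. The cause was not tested. With 2 or 3 libraries a group, small differences were not detectable.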
